A study of Mus musculus with 45 samples.

Results

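The 6 genes described here belong to the aryl hydrocarbon receptor pathway, measured by RNA sequencing in cultured mouse forelimb buds given bisphenol A (BPA), a plastics monomer. They are Ahr, Arnt, Ahrr, Cyp1a1, Cyp1b1 and Tiparp, chosen by gene symbol alone, and each had 1 row in the deposited tables, 6 of 36300 genes in all. The limb buds came from CD1 mouse embryos on gestation day 13 and were kept in organ culture for 3, 24 or 48 h. Cultures received 10 µM BPA, 50 µM BPA or the vehicle, dimethyl sulfoxide, which gave 9 groups of 5 libraries. All 9 groups shared the same medium, held limbs of male and female embryos together, and were gassed with 50% oxygen and 5% carbon dioxide. Forelimbs were pooled for culture, and no label ties the replicates of a group to separate litters, so the p-values cover variation among libraries that may be partly technical.

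The aryl hydrocarbon receptor is a transcription factor that waits in the cytosol in a complex with chaperones. A bound ligand sends it to the nucleus, where it pairs with ARNT and binds short DNA elements whose core reads GCGTG. Its best-known targets are the cytochrome P450 genes Cyp1a1 and Cyp1b1, which oxidise aromatic compounds, and 2 brakes on the pathway: Ahrr, a repressor that competes with the receptor for ARNT, and Tiparp, an ADP-ribosyltransferase that modifies the receptor. Ahr encodes the receptor itself. Arnt encodes a partner that the hypoxia-inducible factors also use.

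Promoter windows of 300 bases, 250 before and 50 after the gene start, were found in RefSeq (GRCm38.p6) for 5 of the 6 genes, all but Ahr. They are printed to show where the core element lies in them. Cyp1a1, Cyp1b1, Ahrr and Tiparp were named above as targets of the receptor, and Arnt was not. Capitals mark GCGTG, or CACGC where the element lies on the opposite strand, and each sequence runs 5′ to 3′ along its gene.
Cyp1a1, chr9:57697363-57697662, plus strand: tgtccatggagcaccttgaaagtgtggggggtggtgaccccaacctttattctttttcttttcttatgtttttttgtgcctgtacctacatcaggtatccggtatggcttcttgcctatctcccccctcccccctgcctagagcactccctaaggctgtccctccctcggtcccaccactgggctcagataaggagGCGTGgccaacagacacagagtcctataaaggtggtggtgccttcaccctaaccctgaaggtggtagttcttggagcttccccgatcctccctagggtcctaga
Cyp1b1, chr17:79715012-79715311, minus strand: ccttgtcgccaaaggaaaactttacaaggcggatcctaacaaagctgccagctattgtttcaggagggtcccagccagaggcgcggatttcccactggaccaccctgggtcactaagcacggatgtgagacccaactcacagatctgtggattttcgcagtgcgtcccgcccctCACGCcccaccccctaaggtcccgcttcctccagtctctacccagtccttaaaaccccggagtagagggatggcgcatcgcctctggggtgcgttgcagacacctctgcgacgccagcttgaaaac
Ahrr, chr13:74292282-74292581, minus strand: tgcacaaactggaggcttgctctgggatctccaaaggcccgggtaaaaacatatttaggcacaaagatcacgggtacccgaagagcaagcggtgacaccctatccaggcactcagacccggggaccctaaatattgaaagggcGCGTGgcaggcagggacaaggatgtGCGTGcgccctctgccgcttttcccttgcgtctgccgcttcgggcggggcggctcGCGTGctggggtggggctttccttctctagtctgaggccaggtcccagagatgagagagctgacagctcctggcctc
Tiparp, chr3:65528197-65528496, plus strand: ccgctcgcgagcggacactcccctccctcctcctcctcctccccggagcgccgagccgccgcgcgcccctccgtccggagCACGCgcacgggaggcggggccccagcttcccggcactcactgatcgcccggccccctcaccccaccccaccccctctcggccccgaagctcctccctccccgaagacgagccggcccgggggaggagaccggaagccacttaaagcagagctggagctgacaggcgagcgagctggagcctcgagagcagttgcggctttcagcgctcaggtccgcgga
Arnt, chr3:95434140-95434439, plus strand: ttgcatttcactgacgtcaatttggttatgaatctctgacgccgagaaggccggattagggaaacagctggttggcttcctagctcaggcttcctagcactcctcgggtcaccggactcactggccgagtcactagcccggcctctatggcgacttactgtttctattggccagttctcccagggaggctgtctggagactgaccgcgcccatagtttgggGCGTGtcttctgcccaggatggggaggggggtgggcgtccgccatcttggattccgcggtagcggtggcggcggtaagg

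Ahrr held 3 copies of the core, with first bases at -107, -82 and -27 from the gene start, and Cyp1a1, Cyp1b1, Tiparp and Arnt held 1 copy each, at -54, -76, -170 and -29. The copies of Cyp1b1 and Tiparp lay on the opposite strand. The core, searched on both strands, was found in 10639 of 32851 windows of this length, or 32.4%. The longer form TNGCGTG, which contains the core, was found in 1664 windows, or 5.07%, and of these genes Ahrr alone held it, in 1 copy. These matches describe letters in a window. The known upstream enhancer of Cyp1a1 was not in the window searched.

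**Figure D1:**
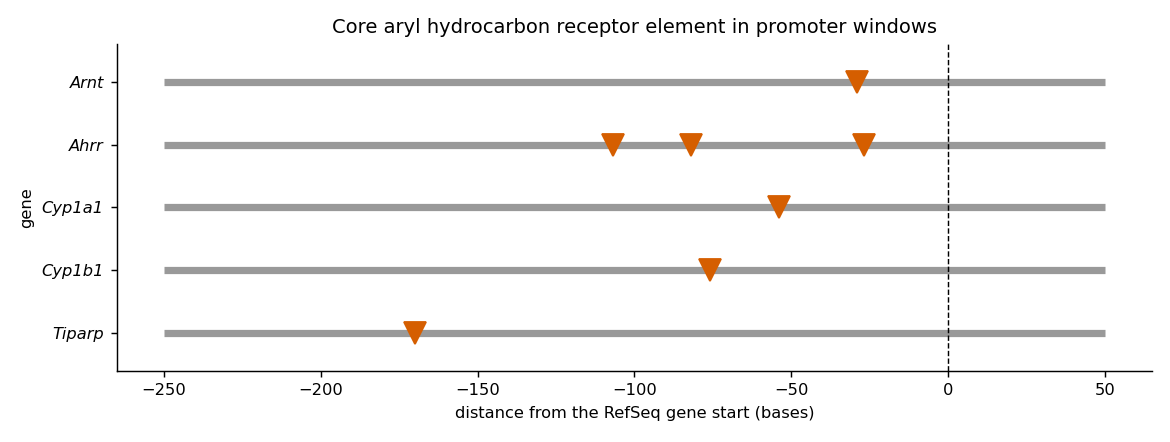
Positions of the core element in the promoter windows of 5 genes, in bases from the RefSeq gene start. Grey bars are the windows, triangles the first base of each match on either strand and the dashed line the start. Ahrr has 3 matches, the nearest to its start at -27, and the other genes have 1 each.

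Each library held between 17.54 M and 27.12 M gene counts (M for mega). Levels are given as CPM, the count scaled to library depth with TMM factors over all 45 libraries, and between genes as the authors' FPKM, which divides by gene length. Limb mesenchyme markers made up 0.187% to 0.288% of counts in the group means of vehicle and 50 µM cultures, and the cartilage collagen Col2a1 reached 2140 to 14200 CPM over the 45 libraries. Relative to its mean, the summed share of epidermal markers varied most within a group, from 0.00814% to 0.146% of counts in the vehicle libraries of 24 h.

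All 6 genes were detected in every library, the least counted being Cyp1a1 with 35 to 1023 counts per library. Cyp1a1 was also the most variable, from 1.58 to 44.7 CPM, a 28.3-fold range. Arnt was the steadiest, from 117 to 148 CPM. The mean within-group coefficient of variation was 35.9% for Cyp1a1, 21.6% for Cyp1b1, 17.3% for Ahrr, 15.7% for Ahr, 12.1% for Tiparp and 4.37% for Arnt.

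Per length, in the vehicle cultures of 3 h, Arnt had the highest level at 17.0 ± 0.524 FPKM (mean ± SD, n = 5 here and below). Tiparp followed at 12.2 ± 1.43 FPKM, then Cyp1a1 at 9.15 ± 2.82 FPKM and Cyp1b1 at 7.31 ± 1.52 FPKM. Ahr stood at 2.25 ± 0.237 FPKM and Ahrr at 1.18 ± 0.161 FPKM. The ranges of mean ± SD overlapped between Tiparp and Cyp1a1 and between Cyp1a1 and Cyp1b1, and between no other neighbours in that order. With 50 µM at 48 h, Cyp1b1 at 14.2 ± 1.36 FPKM came second to Arnt at 16.0 ± 0.353 FPKM, and Cyp1a1 at 2.07 ± 0.667 FPKM overlapped with Ahr at 2.11 ± 0.102 FPKM.

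**Figure D2:**
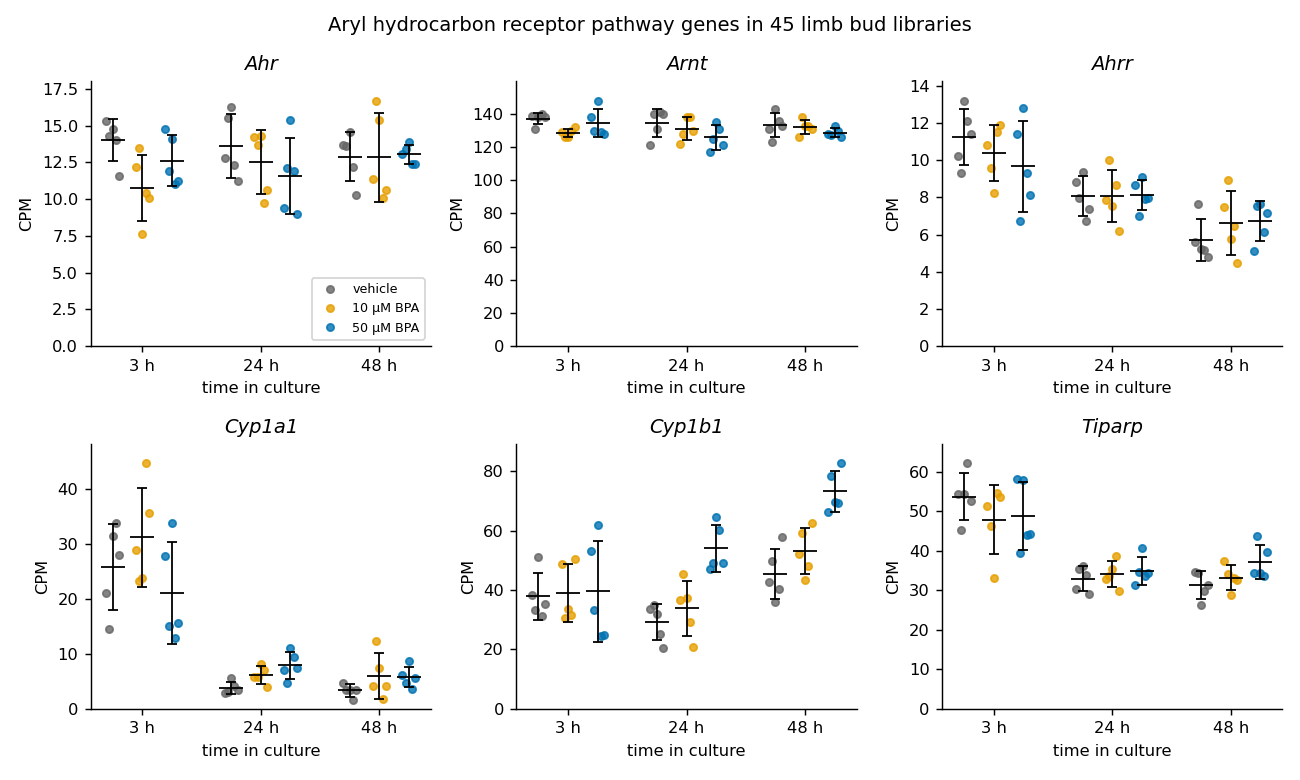
CPM of the 6 genes in every library by time in culture, with vehicle, 10 µM and 50 µM BPA side by side in rising dose. Points are libraries and bars the mean ± SD of 5. Cyp1a1 is high at 3 h in all doses and Cyp1b1 is highest with 50 µM at 48 h, at 66.1 to 82.6 CPM, while Arnt stays between 117 and 148 CPM.

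With 50 µM BPA both P450 genes were higher at 24 h, and Cyp1b1 also at 48 h. Cyp1b1 rose 1.85-fold at 24 h and 1.61-fold at 48 h with 50 µM, and Cyp1a1 2.07-fold at 24 h. The repressor Ahrr, the receptor Ahr, its partner Arnt and Tiparp were not called at any time with either dose on the unpaired libraries. By the rule used here, which asks for all 5 same-numbered pairs, libraries varied together in 50 µM against vehicle at 48 h alone. There, with the replicate number as a block, Tiparp and Cyp1a1 were called as well (adjusted p = 0.0342 and 0.00893, edgeR). Elsewhere fewer pairs passed, among them 4 of 5 for 10 µM against vehicle at 24 h. Correlations of those pairs were 0.066 to 0.358, against 0.105 to 0.215 for 50 µM at 48 h. Values without mention of the block are unpaired. "Called", "rose" and "fell" refer to an adjusted p under 0.05 in edgeR's quasi-likelihood test with Benjamini-Hochberg adjustment over all genes tested, on the 10 libraries compared.

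Cyp1b1 had 47.1, 48.9, 64.5, 60.2 and 49.2 CPM with 50 µM at 24 h, against 33.5, 34.8, 31.8, 25.3 and 20.3 CPM in vehicle. All 5 treated libraries lay above every vehicle library, and the log2 fold change was 0.89 ± 0.14 (SE, adjusted p = 0.00264, edgeR). The share of all genes that separated in this way was not counted, here and in all comparisons below. At 48 h, Cyp1b1 had 66.1, 78.4, 69.6, 69.4 and 82.6 CPM with 50 µM, against 42.8, 49.6, 36.1, 40.3 and 57.7 CPM in vehicle. Again the groups did not overlap, and the log2 fold change was 0.68 ± 0.11 (adjusted p = 0.000738, edgeR). In the authors' deposited table the corresponding log2 fold changes were 0.89 and 0.69. Cyp1b1 is a P450 known from many tissues outside the liver. In bulk libraries of whole limb buds, a change in the number of cells that express a gene and a change in its RNA per cell cannot be told apart, here and in all results below.

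Cyp1a1 had 7.01, 4.72, 11.0, 9.49 and 7.42 CPM with 50 µM at 24 h, against 2.91, 3.00, 5.55, 4.06 and 3.51 CPM in vehicle. In all, 4 of the 5 treated libraries exceeded every vehicle library, and replicate 2 lay inside the vehicle range. The log2 fold change was 1.05 ± 0.24 (adjusted p = 0.0234, edgeR). This call was lost when vehicle replicate 2, 4 or 5 or 50 µM replicate 3 or 4 was left out (adjusted p up to 0.0701, lowest 0.0143 over all 10 omissions) and in a fit of all 45 libraries (adjusted p = 0.0614). At 48 h Cyp1a1 had 6.24, 4.76, 8.66, 3.67 and 5.67 CPM with 50 µM, against 4.73, 3.51, 3.51, 1.58 and 3.43 CPM in vehicle. Here too 4 of 5 treated libraries lay above all vehicle libraries, but the log2 fold change of 0.79 ± 0.27 did not pass (adjusted p = 0.0828, edgeR). DESeq2 called it (adjusted p = 0.0291), and so did edgeR with no filter on low counts (adjusted p = 0.0404). With the replicate block it was called (adjusted p = 0.00893, edgeR).

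So 2 of the 6 genes were called at 24 h, where 3.47% of all genes were, and 1 of 6 at 48 h, where 9.18% were. With the replicate block 3 of 6 were called at 48 h, Tiparp being the third (adjusted p = 0.0342, edgeR). Over all genes 2598 of 16732 were called with the block, against 1536 without it. At 3 h with 50 µM, none of the 6 was called, where 1.41% of all genes were. Cyp1a1 had 27.9, 15.1, 33.8, 12.9 and 15.7 CPM with 50 µM at 3 h, against 21.1, 14.6, 31.5, 33.8 and 28.0 CPM in vehicle, and the groups overlapped widely. Its log2 fold change was -0.30 ± 0.26, and that of Cyp1b1 0.05 ± 0.23. No member had an unadjusted p under 0.05 at 3 h, and DESeq2 called 0 of the 6.

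Whether the effect of 50 µM itself differed between times was tested as an interaction in a fit of all 45 libraries. The effect on Cyp1a1 was 1.35 ± 0.45 log2 units larger at 24 h than at 3 h (adjusted p = 0.191, edgeR) and that on Cyp1b1 0.83 ± 0.28 larger (adjusted p = 0.192, edgeR), so neither difference passed. Without replicate 3 of 50 µM at 3 h, the highest of its group, the difference for Cyp1b1 passed at 1.05 (adjusted p = 0.0491, edgeR). None of the 6 genes was called in the interactions of 24 with 3 h, 48 with 3 h or 48 with 24 h, in which 0.592%, 1.96% and 0% of all genes were called. At an unadjusted p under 0.05 the first held Cyp1a1 and Cyp1b1, the second Cyp1a1, Cyp1b1 and Tiparp, and the last none. DESeq2 called 0 of the 6 in each of these interactions.

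Neither the receptor gene Ahr nor Arnt was called with 50 µM, with or without the replicate block. Ahr had 8.96 to 15.4 CPM with 50 µM at 24 h, against 11.2 to 16.3 CPM in vehicle, with a log2 fold change of -0.23 ± 0.16, and at 48 h 12.4 to 13.9 CPM with 50 µM, against 10.3 to 14.6 CPM in vehicle. Arnt differed by -0.10 ± 0.06 at 24 h and -0.06 ± 0.05 at 48 h. Of the 2 brakes, Ahrr had a log2 fold change of 0.01 ± 0.14 at 24 h and 0.23 ± 0.17 at 48 h. Tiparp had 31.4 to 40.6 CPM with 50 µM at 24 h, against 29.1 to 36.2 CPM in vehicle. At 48 h it had 34.3, 43.7, 34.3, 33.7 and 39.6 CPM with 50 µM, against 34.7, 34.3, 26.2, 29.8 and 31.3 CPM in vehicle (0.24 ± 0.10, adjusted p = 0.139, and 0.0342 with the replicate block, edgeR), with 2 treated libraries above all of vehicle.

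**Figure D3:**
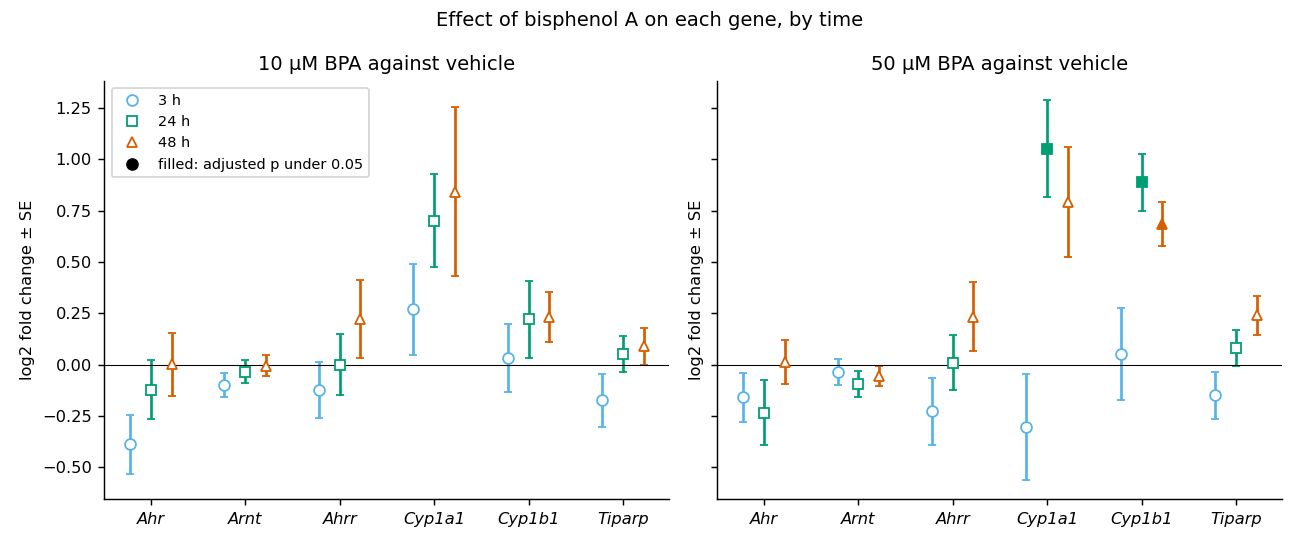
Log2 fold change (± SE) of each gene with 10 µM (left) and 50 µM (right) BPA against vehicle at 3, 24 and 48 h. Filled symbols have an adjusted p under 0.05. In these fits without the replicate block, the filled ones are Cyp1a1 at 24 h and Cyp1b1 at 24 and 48 h, all with 50 µM. No symbol is filled for 10 µM.

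With 10 µM none of the 6 genes was called at any time (edgeR), where 0%, 0% and 0.00591% of all genes were called at 3, 24 and 48 h. An unadjusted p under 0.05 was seen for Ahr at 3 h, with 7.65 to 13.5 CPM against 11.6 to 15.3 CPM in vehicle (log2 fold change -0.39 ± 0.15), and for Cyp1a1 at 24 h. DESeq2 called 0 of the 6 at each time. Cyp1a1 had 5.79, 5.86, 8.22, 7.11 and 3.95 CPM with 10 µM at 24 h, of which 4 lay above every vehicle library (0.70 ± 0.23, adjusted p = 0.954, edgeR). At 48 h it had 4.23, 12.4, 7.50, 1.73 and 4.08 CPM with 10 µM, a wide spread that overlapped vehicle (0.84 ± 0.41). Cyp1b1 differed from vehicle by 0.22 ± 0.19 at 24 h and 0.23 ± 0.12 at 48 h with 10 µM. Both doses were set against the same vehicle libraries, so their values are not independent.

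Set against each other, 50 and 10 µM differed in no member in the fit of all 45 libraries, where 0.618%, 0.789% and 3.14% of all genes were called at 3, 24 and 48 h. Cyp1b1 had an unadjusted p under 0.05 at 24 and 48 h, the other genes at no time, and DESeq2 called 0 of the 6 at each time. The groups of Cyp1b1 did not overlap at either later time, a separation whose share over all genes was not counted. At 24 h Cyp1b1 had 47.1 to 64.5 CPM at 50 µM and 20.8 to 45.3 CPM at 10 µM. At 48 h Cyp1b1 had 66.1 to 82.6 CPM at 50 µM and 43.5 to 62.4 CPM at 10 µM. The log2 differences were 0.67 ± 0.20 (adjusted p = 0.106, edgeR) and 0.47 ± 0.20 (adjusted p = 0.265, edgeR). In a fit of those 10 libraries alone, the difference at 48 h passed (adjusted p = 0.0109, edgeR). For Cyp1a1 the difference was 0.35 ± 0.33 at 24 h and -0.04 ± 0.33 at 48 h.

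Markers of other cell types were called with 50 µM as well. Their counts stand beside 3.47% of all genes called at 24 h and 9.18% at 48 h. At 24 h, 5 of 10 skeletal muscle markers fell and none rose, and their summed share was 0.141% to 0.179% of counts with 50 µM and 0.172% to 0.300% in vehicle. At 48 h, 7 of 10 fell, and the shares were 0.120% to 0.186% with 50 µM and 0.233% to 0.363% in vehicle. Macrophage markers fell in 3 of 10 cases at 24 h and 6 of 10 at 48 h, with shares of 0.0132% to 0.0145% and 0.0121% to 0.0228% with 50 µM against 0.0171% to 0.0209% and 0.0238% to 0.0313% in vehicle. Pericyte and smooth muscle markers fell in 2 of 10 cases at 24 h and 3 of 10 at 48 h, with shares of 0.0797% to 0.0844% and 0.0820% to 0.0954% with 50 µM against 0.0838% to 0.110% and 0.0992% to 0.111% in vehicle. The gene Des stands in both this list and the skeletal muscle list, here and below, so the 2 lists are not independent. Of 10 cartilage markers 2 fell at 24 h and 1 rose at 48 h, when their share was 1.71% to 2.19% with 50 µM and 1.37% to 1.88% in vehicle. Of 17 endothelial markers 1 fell at each time, and of 10 epidermal markers none was called at either (edgeR, 0 at an unadjusted p under 0.05, 0 with DESeq2). No marker of these 6 lists was at 0 in a whole group. The part of the muscle, macrophage, pericyte, cartilage and endothelial markers in the P450 results was not tested. A fit added after seeing the data had the mean log2 CPM of the epidermal markers as a covariate. No member of that list was called, so this fit cannot show the part of the lists with called markers. In it the log2 fold change of Cyp1b1 was 0.82 at 24 h and 0.68 at 48 h (adjusted p = 0.000571 and 0.000595, edgeR), and that of Cyp1a1 1.01 and 0.75 (adjusted p = 0.0252 and 0.0292, edgeR).

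The largest fold change of the 6 genes in these comparisons came with time in culture, not with BPA. In vehicle, Cyp1a1 was 6.70-fold lower at 24 h and 7.71-fold lower at 48 h than at 3 h, Tiparp and Ahrr were lower too, and Cyp1b1 was higher at 48 h than at 24 h. Cyp1a1 had 2.91, 3.00, 5.55, 4.06 and 3.51 CPM in vehicle at 24 h, against 21.1, 14.6, 31.5, 33.8 and 28.0 CPM at 3 h. The groups did not overlap, and the log2 fold change was -2.74 ± 0.23 (adjusted p = 5.73e-07, edgeR). It stayed low at 48 h, with 1.58 to 4.73 CPM in vehicle (-2.95 ± 0.25 against 3 h, adjusted p = 9.62e-08, edgeR). Tiparp had 30.2, 35.3, 36.2, 33.8 and 29.1 CPM in vehicle at 24 h, against 54.3, 45.2, 54.4, 62.1 and 52.5 CPM at 3 h, again without overlap (-0.70 ± 0.09, adjusted p = 4.23e-05, edgeR). Ahrr, the repressor, had 8.84, 7.94, 9.38, 6.74 and 7.39 CPM in vehicle at 24 h, against 10.2, 9.33, 13.2, 12.1 and 11.4 CPM at 3 h, with 1 library in the range of the earlier group (-0.47 ± 0.14, adjusted p = 0.017, edgeR). At 48 h Ahrr stood at 4.78 to 7.66 CPM in vehicle, below all libraries of 3 h (-0.98 ± 0.15, adjusted p = 6.89e-05, edgeR).

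Cyp1b1 took another course in vehicle. It had 42.8, 49.6, 36.1, 40.3 and 57.7 CPM at 48 h, against 33.5, 34.8, 31.8, 25.3 and 20.3 CPM at 24 h, without overlap (0.63 ± 0.15, adjusted p = 0.0169, edgeR). At 24 h against 3 h its log2 fold change was -0.37 ± 0.16, with overlap and no call. Ahr and Arnt were called in none of the comparisons between times: over 3, 24 and 48 h in vehicle Ahr averaged 14.0 ± 1.43, 13.6 ± 2.19 and 12.9 ± 1.67 CPM, and Arnt 137 ± 3.66, 134 ± 8.77 and 133 ± 7.36 CPM. In vehicle, 3 of 6 genes were called at 24 against 3 h, where 30% of all genes were, 1 of 6 at 48 against 24 h, where 8.45% were, and 3 of 6 at 48 against 3 h, where 46.7% were. The rise of Cyp1b1 at 48 against 24 h was lost without vehicle replicate 4 of 24 h or replicate 5 of 48 h (adjusted p = 0.0508 and 0.0526, edgeR). DESeq2 also called Cyp1b1 lower at 24 than at 3 h (adjusted p = 0.049) and Ahrr lower at 48 than at 24 h (adjusted p = 0.033).

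With 50 µM, Cyp1a1 and Tiparp were again lower at 24 than at 3 h. Cyp1a1 had 7.01, 4.72, 11.0, 9.49 and 7.42 CPM with 50 µM at 24 h, against 27.9, 15.1, 33.8, 12.9 and 15.7 CPM with 50 µM at 3 h, and the groups did not overlap (-1.40 ± 0.26, adjusted p = 0.000639, edgeR). Tiparp had 31.4 to 40.6 CPM with 50 µM at 24 h, against 39.3 to 58.1 CPM at 3 h (-0.48 ± 0.11, adjusted p = 0.00372, edgeR). Cyp1b1 had 66.1 to 82.6 CPM with 50 µM at 48 h, against 47.1 to 64.5 CPM at 24 h, without overlap (0.43 ± 0.09, adjusted p = 0.00495, edgeR), a call lost in the fit of all 45 libraries (adjusted p = 0.168). Ahrr fell with 50 µM at 48 against 3 h (-0.51 ± 0.18, adjusted p = 0.0234, edgeR), but not without replicate 1 or 3 of 3 h or replicate 1 of 48 h (adjusted p = 0.063, 0.0714 and 0.0561). In 50 µM, 2 of 6 genes were called at 24 against 3 h, where 31.1% of all genes were, 1 of 6 at 48 against 24 h, where 11.4% were, and 4 of 6 at 48 against 3 h, where 46.2% were.

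**Figure D4:**
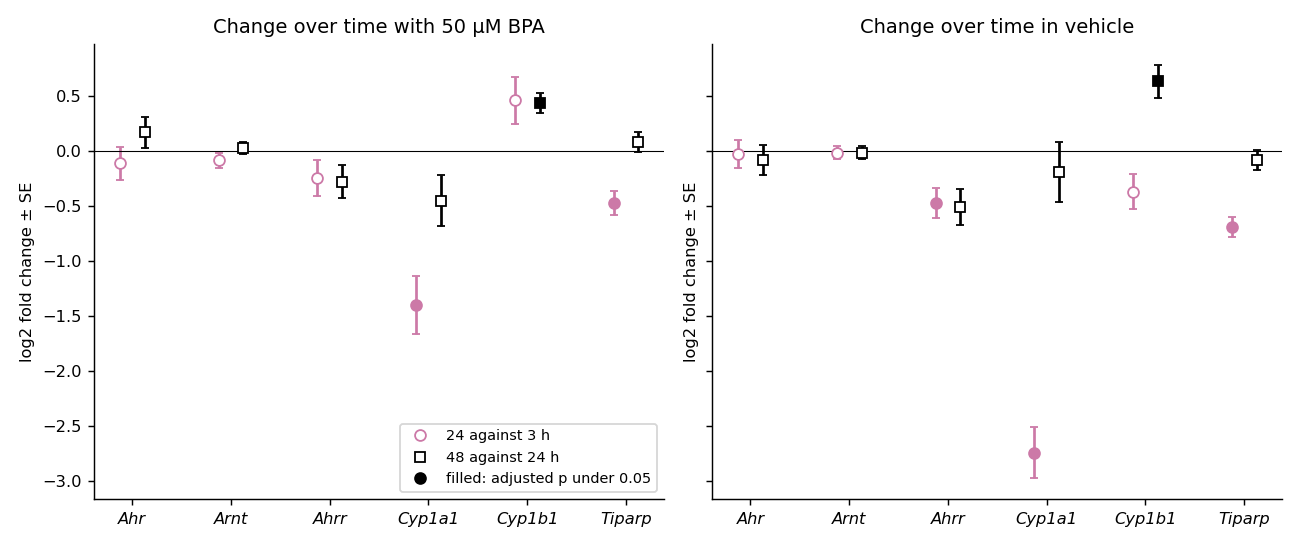
Log2 fold change (± SE) of each gene at 24 against 3 h and at 48 against 24 h, with 50 µM BPA (left) and in vehicle (right). Filled symbols have an adjusted p under 0.05. Cyp1a1 at 24 against 3 h lies lowest in both panels, at -1.40 with 50 µM and -2.74 in vehicle, and Ahr and Arnt lie close to 0.

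The make-up of the cultures changed over the same hours. In vehicle at 24 against 3 h, where 30% of all genes were called, 12 of 17 endothelial markers fell and none rose. The endothelial share was 0.0467% to 0.0543% of counts in vehicle at 24 h and 0.0699% to 0.0783% at 3 h, and that of erythroid markers, of which 7 of 11 fell, was 0.124% to 0.160% at 24 h and 0.173% to 0.264% at 3 h. Cartilage markers rose in 9 of 10 cases, with a share of 0.992% to 1.18% in vehicle at 24 h and 0.371% to 0.466% at 3 h. Skeletal muscle markers rose in 8 of 10 cases and 1 fell, with a share of 0.172% to 0.300% at 24 h and 0.0866% to 0.0957% at 3 h. Limb mesenchyme markers fell in 8 of 10 cases, with a share of 0.220% to 0.230% at 24 h and 0.268% to 0.307% at 3 h. Macrophage markers rose in 7 of 10 cases, with a share of 0.0171% to 0.0209% at 24 h and 0.00753% to 0.00973% at 3 h. Pericyte and smooth muscle markers rose in 6 of 10, with a share of 0.0838% to 0.110% at 24 h and 0.0600% to 0.0657% at 3 h, and of 10 epidermal markers 2 rose and 2 fell. No marker of these lists was at 0 in a whole group. The endothelial genes Pecam1, Cdh5 and Kdr averaged 54.8, 78.8 and 48.1 CPM in vehicle at 24 h, against 75.8, 110 and 60.3 CPM at 3 h. Plvap, which marks fenestrated vessels, had the widest range of these 4 and averaged 6.87 CPM at 24 h, against 43.4 CPM at 3 h. The median log2 fold change of the 17 endothelial markers was -0.46. The part of these markers in the fall of Cyp1a1, Tiparp and Ahrr was not tested.

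Markers also moved between 24 and 48 h in vehicle, when Cyp1b1 rose and 8.45% of all genes were called. At 48 against 24 h, 8 of 10 cartilage markers rose, with a share of 1.37% to 1.88% at 48 h and 0.992% to 1.18% at 24 h. Macrophage markers rose in 4 of 10 cases, with a share of 0.0238% to 0.0313% at 48 h and 0.0171% to 0.0209% at 24 h. Of 9 tested erythroid markers 8 fell, and the share of that list was 0.0443% to 0.0755% at 48 h and 0.124% to 0.160% at 24 h. Limb mesenchyme markers fell in 5 of 10 cases, with a share of 0.176% to 0.194% at 48 h and 0.220% to 0.230% at 24 h. Of the other lists, 3 of 10 skeletal muscle and 1 of 10 pericyte and smooth muscle markers rose, 4 of 17 endothelial markers fell, and of 10 epidermal markers none was called (edgeR, 0 at an unadjusted p under 0.05, 0 with DESeq2). Their part in the rise of Cyp1b1 was not tested.

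Other genes of the pathway were taken from lists written with earlier results of these data known. Listed were 14 further genes reported as targets of the receptor. With 50 µM, 6, 8 and 9 of them had enough counts to be tested at 3, 24 and 48 h. None was called (edgeR), where 1.41%, 3.47% and 9.18% of all genes were. With so few genes tested, the lack of a call does not set them apart from all genes. Of these targets 0, 0 and 2 had an unadjusted p under 0.05, and DESeq2 called 0 at each time. Nqo1, a quinone reductase, had log2 fold changes of 0.22 ± 0.13, 0.30 ± 0.16 and 0.34 ± 0.16 with 50 µM at 3, 24 and 48 h. Aldh3a1, an aldehyde dehydrogenase, had -0.37 ± 0.46 at 24 h and -0.10 ± 0.41 at 48 h. Cyp1a2, a liver P450 and neighbour of Cyp1a1, had at most 5 counts in any library. In vehicle at 24 against 3 h, 2 of 6 tested targets fell, Cyp2s1, a P450 (-1.45 ± 0.28), and Selenbp1, a selenium-binding protein (-0.41 ± 0.14). Of all genes 30% were called in that comparison, and DESeq2 called 1 target higher and 2 lower. Nqo1 did not pass there at 0.01 ± 0.16. The median over the tested targets was 0.05 with 50 µM at 24 h and 0.10 at 48 h, beside -0.001 and -0.005 over all genes.

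Of 5 genes of the chaperone complex, among them Hsp90aa1 and Hsp90ab1, none was called with 50 µM at any time by edgeR or DESeq2. At 3, 24 and 48 h, 1, 0 and 0 had an unadjusted p under 0.05 (edgeR). The shares of all genes called at these times were 1.41%, 3.47% and 9.18%. In vehicle at 24 against 3 h, Hsp90aa1 (-0.29 ± 0.07), Hsp90ab1 (-0.23 ± 0.05) and the kinase Src (-0.20 ± 0.07) fell. These were 3 of 5, where 30% of all genes were called. Of 8 co-activators and co-repressors, Ncoa3, a steroid receptor co-activator, rose with 50 µM at 24 h (0.30 ± 0.06) and 48 h (0.26 ± 0.07). It was the only 1 of the 8 called at each time, where 3.47% and 9.18% of all genes were. Of the listed relatives and partners of ARNT, 11 were tested with 50 µM at 48 h. Only 1 was called, Arnt2, a close paralog of Arnt, which rose (0.23 ± 0.06, adjusted p = 0.0363, edgeR). Of all genes 9.18% were called there. In vehicle Arnt2 fell at 24 against 3 h (-0.45 ± 0.07) and at 48 against 24 h (-0.43 ± 0.06), and Npas2, a clock factor, rose at 24 against 3 h (1.67 ± 0.23). Of 11 tested in each, 2 rose and 1 fell at 24 against 3 h, and 2 fell at 48 against 24 h. Of all genes 30% and 8.45% were called. Hif1a, the hypoxia-inducible partner of ARNT, was not called with 50 µM (-0.01 ± 0.11, 0.02 ± 0.10 and 0.06 ± 0.06 at 3, 24 and 48 h).

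Por, the reductase that passes electrons to P450 enzymes, rose with 50 µM at 3 h (0.38 ± 0.08, adjusted p = 0.0168, edgeR), 1 of 5 tested genes of its list. Of all genes 1.41% were called there. At 24 and 48 h Por differed by 0.09 ± 0.07 and 0.06 ± 0.06. With 50 µM at 48 h 9.18% of all genes were called. Of 18 targets of the hypoxia-inducible factors, which share ARNT with the receptor, 4 rose with 50 µM at 48 h. These were the glucose transporter Slc2a1 (0.61 ± 0.10), the hexokinase Hk2 (0.55 ± 0.11), the carbonic anhydrase Car12 (0.57 ± 0.16) and Ddit4, an inhibitor of mTOR signalling (0.38 ± 0.09). At 3 h Ankrd37 fell (-1.17 ± 0.26) and at 24 h the glycolytic enzyme Eno1 fell (-0.35 ± 0.09), 1 gene of 18 each. Of all genes 1.41% and 3.47% were called at these times. At an unadjusted p under 0.05 (edgeR) there were 8, 9 and 5 of the 18 at 3, 24 and 48 h. Over all genes there were 2155 of 16988, 2652 of 16841 and 3830 of 16732. DESeq2 called 2 lower at 3 h, 3 lower and 1 higher at 24 h, and 4 higher at 48 h. The median log2 fold changes of the 18 were -0.136, -0.125 and 0.14. With 10 µM none of the genes of these lists was called at any time by edgeR or DESeq2, with 4, 3 and 5 genes at an unadjusted p under 0.05 at 3, 24 and 48 h.

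The genes whose levels followed each member most closely over the 45 libraries were found by Pearson's r of log2 CPM among 12652 protein-coding genes. The libraries fall into groups of time that many genes share, so r is a description. For Cyp1a1 these were Ednrb, Acer2 and Ank3 at 0.89, 0.89 and 0.88, and for Tiparp Cenpf, Ednrb and Bcl2l13 at 0.89, 0.88 and 0.88. Ahrr was closest to Tal1, Bnc1 and Acer2 at 0.83, 0.81 and 0.81, and Cyp1b1 to Pam, C5ar1 and Map3k20 at 0.80, 0.79 and 0.75. Ahr reached 0.69 with Dsc2 and Arnt 0.71 with Sp1. After the mean of each group was subtracted, Ahr reached 0.84 with Frem1, Arnt 0.80 with Nsd1 and Tiparp 0.77 with Mob1a. The highest values for Cyp1a1 and Cyp1b1 were then 0.66 with Txnip and 0.74 with Iqgap1. Ahrr was closest to Gimap8 at 0.69, followed by Tiparp at 0.64.

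In the deposited annotation (mm10), all 6 genes are protein-coding. Cyp1a1 spans chr9:57687928-57703824 on the plus strand, beginning upstream of the RefSeq start used for its promoter, and Cyp1b1 spans chr17:79706953-79715041 on the minus strand. Ahr lies at chr12:35497974-35535038 and Ahrr at chr13:74211118-74292331, both on the minus strand. Arnt lies at chr3:95434388-95497240 and Tiparp at chr3:65528410-65555518, both on the plus strand. The strand setting of the counting was not stated, so reads of overlapping genes cannot be assigned to one of them with certainty. Such neighbours overlap Tiparp, Arnt and Ahr, with at most 58, 40 and 3 counts in any library, against at least 471, 2137 and 166 counts of these genes.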

How the data were processed

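The authors deposited whole-number counts per gene for each library in 9 tables, each comparing 2 groups, with FPKM values and, from the authors' own test, a log2 fold change, p-value and adjusted p-value. A further normalised signal column deposited by the authors was not used. CASAVA 1.8, STAR 2.5, HTSeq 0.6.1, DESeq2 2 and build mm10 are named, without roles, per the submitters' processing notes. Counts of a library were equal in all tables holding it (1345730 values compared, 0 unequal), and 0 value columns belonged to no sample. Groups follow the sample titles. Titles were also followed for 50 µM at 3 h, whose treatment length is given elsewhere as 24 h.

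Comparisons with vehicle and between times were fitted on their 10 libraries with edgeR 4.0.16 (R 4.3.3; quasi-likelihood test, TMM, minimum count 10, minimum total 15, Benjamini-Hochberg at 0.05). Comparisons of doses and interactions came from all 45 libraries (19259 genes). The SE was obtained as |log2 fold change| over the root of the F statistic. FPKM served only to compare genes, and correlations used log2 CPM with a prior count of 2. The pipeline was tested on simulated data.

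Replicate numbers were taken to pair samples where all 5 same-numbered pairs had correlated deviations from group means above 0.1. This held only for 50 µM against vehicle at 48 h (0.105 to 0.215). Alternatives were DESeq2 1.42.0, other size factors, no filter, a filter of 1 CPM in 5 libraries, another set of libraries in the fit, the replicate block, and each library left out in turn. An epidermal covariate was added after seeing the data. The 6 genes, the gene lists and the rule for named genes (all 6, up to 4 called genes of smallest p per list, 9 set genes, markers and the 3 genes most alike per member) were chosen with earlier results of these data known. Of those the rule allows, a selection is named.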

Additional observations from a re-analysis of the deposited data

Results flagged for a closer look

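In 54 groups of 5 libraries (6 genes in 9 groups), a library was singled out where its gap to the nearest other exceeded 0.71 of the group's range, which chance does in about 1 in 20 groups. This met 2 groups. Arnt in vehicle at 3 h was lowest in replicate 2, at 131 CPM, with a gap of 0.754 of the range. Ahrr in vehicle at 48 h was highest in replicate 2, at 7.66 CPM, with a gap of 0.724, and without that library Ahrr was called lower in vehicle at 48 than at 24 h (log2 fold change -0.64, adjusted p = 0.0243, edgeR).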

How the results depend on the processing

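Of 340 recomputed counts of called genes, 322 stayed within 1.5 times the value reported. Of 2040 recomputed fold changes, 12 lost their call, 17 gained one and 0 reversed a call. With 50 µM at 24 h the count was 1 in the fit of all 45 libraries and 1 to 2 with each library left out, as Cyp1a1 dropped out. With 50 µM at 48 h it was 2 with DESeq2, 2 with no filter, 2 with the epidermal covariate and 3 with the replicate block, against 1 as reported. In vehicle at 48 against 24 h it was 2 with DESeq2, 2 with all 45 libraries and 0 to 2 with each library left out. With 50 µM at 48 against 24 h it was 0 with all 45 libraries. For 50 against 10 µM at 48 h it was 1 with only the groups compared, and for the difference in effect between 24 and 3 h 0 to 1 with each library left out. The cause was not tested. Elsewhere at most 4 of 5 same-numbered pairs passed 0.1 (50 µM at 24 h and 10 µM at 24 and 48 h), so the libraries were not taken as paired: with the number as a block the count was 4 in vehicle and 3 in 50 µM at 24 against 3 h, where Cyp1b1 was added, and was as reported in every other comparison but 50 µM at 48 h. The block moved the calls over all genes to 1180 for 50 µM at 24 h, and to 95 and 37 for 10 µM at 24 and 48 h, and the adjusted p of Cyp1a1 with 10 µM at 24 h to 0.0746 (0.954 without it). By library code in place of title number at 48 h with 10 µM it was 0. Counts of 35 to 261 for Cyp1a1 after 3 h limit the precision of its values.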
